A study of Mustela putorius furo with 8 samples.

Results

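Cluster 7 of the wild-type (WT) cells held 818 of the 21600 WT cells, out of 32945 cells of both genotypes. Its members were the WT cells with cluster number 7 in the deposited cell table, where they carry the class name centroacinar. The cells were labelled as ferret pancreatic ductal epithelial (PDE) cells, polarized at an air-liquid interface, and single-cell RNA was counted on day 2, 5, 7 and 9 of that culture. Each day had 1 WT library and 1 library from CFTR-knockout (CF) ferrets, whose cells carry 2 knockout alleles of the CFTR chloride and bicarbonate channel. WT cells carry no engineered allele, and no other agent set the groups apart. Per the study's methods the cells came from newborn ferrets of 1 to 3 days, had been expanded for 10 passages, and were pooled from several donor animals of each genotype. No cell can be assigned to an animal here, and a cell type's share of a pool can follow 1 animal.

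Centroacinar cells sit where the smallest pancreatic duct meets the acinus, the gland's enzyme-secreting end piece. They are known as duct-like cells with high Notch activity, read out through HES1, and as a source of CFTR-dependent fluid and bicarbonate. Keratins 8, 18, 19 and 7 form the filaments of such simple epithelia, while keratin 5 and the transcription factor p63 are known from basal cells.

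The 4 WT libraries held between 82961927 and 114585136 unique molecular identifiers (UMIs, each a counted transcript) in retained cells. The median WT cell held between 14949 and 16861 UMIs. No cell barcode of the cluster was shared between libraries. With 1 library a day there is no replicate error, so no test was made and no p-value is given. Intervals below are exact 95% intervals and cover counting error only. Levels are UMI counts per 1000000 UMIs (CPM), summed over the cells of a cluster in 1 library. Counts are not divided by gene length, so levels are compared between cells and not between genes. In each library the cells of cluster 7 were set against the other WT cells as a log2 difference of CPM + 1. A gene was counted as higher or lower when it was past 2-fold in 1 direction on both day 5 and day 9, the days with at least 50 cells of the cluster, and had a mean of at least 10 CPM over those days on either side. The cells had been clustered on these same genes, so such counts describe the cluster and do not test it.

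The cluster was absent on day 2, present on day 5, scarce on day 7 and most frequent on day 9. It held 0 of 6224 WT cells on day 2, with an exact interval that reaches 0.0593%. On day 5 it held 313 of 5326 cells, or 5.88% (5.26 to 6.54). On day 7 it held 47 of 4634 cells, or 1.01% (0.746 to 1.35). On day 9 it held 458 of 5416 cells, or 8.46% (7.73 to 9.23). The intervals of these 3 days do not overlap, but each day is a different library, and day and library cannot be told apart. As a share of WT cells named centroacinar, the cluster made up 41.3% of 758 on day 5, 6.02% of 781 on day 7 and 19.4% of 2361 on day 9. Cluster 3, also named centroacinar, was scarce on day 7 as well, with 50, 29 and 965 cells on day 5, 7 and 9. Cluster 21, named centroacinar progenitor, had 56, 33 and 418 cells on those days. Cluster 10, of that same name, ran otherwise, with 292, 320 and 145 cells.

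**Figure D1:**
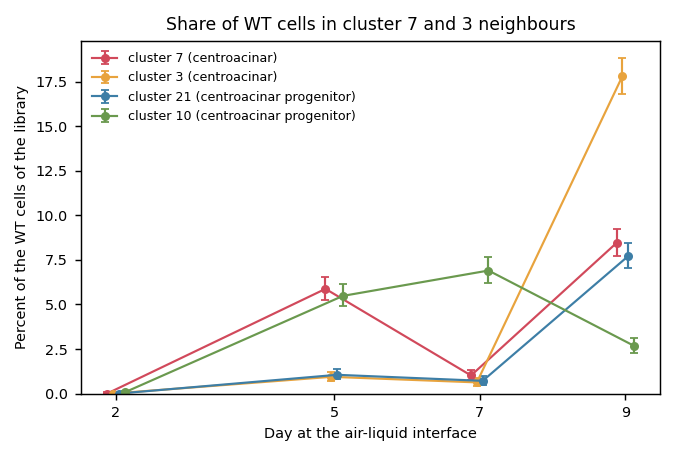
Share of the WT cells of each library (y axis, percent, exact 95% intervals) in cluster 7 and in clusters 3, 21 and 10, against the day at the air-liquid interface (x axis). Cluster 7 goes from 0% on day 2 to 5.88%, 1.01% and 8.46% on day 5, 7 and 9, while cluster 10 is at 6.91% on day 7.

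Cells of the cluster were somewhat deeper than the rest on day 5. Their median UMI count was 18546 on day 5, 15485 on day 7 and 15454.5 on day 9, against 16728, 15899 and 14862 in the other WT cells. Mitochondrial genes took 7.53% of the cluster's summed UMIs on day 5, 12.5% on day 7 and 8.91% on day 9, against 6.99%, 11.3% and 10.8% of the others'. Ribosomal protein genes took 11.1% on day 5 and 10.6% on day 9, against 16.3% and 12.3%.

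The name was then read against marker genes. Of the study's own centroacinar markers, 5 were in the annotation, and none of the 5 was counted as higher or lower than in other WT cells. Per the study, clusters were first named by correlating their expression with published single-cell data of mouse and human pancreas. That step was not repeated here. The study gives these genes as expressed by the clusters so named, so the list is not independent of the name. Its summed level was 60852 and 68208 CPM on day 5 and 9, against 30640 and 47634 CPM, and almost all of that was the calcium-binding protein S100A6, at 57593 and 65080 CPM against 27511 and 44420 CPM. S100A4 of the same list had 433 and 437 CPM against 146 and 272 CPM. PROM1, an apical membrane protein, had 163 and 216 CPM against 129 and 355 CPM, and KRT7 had 2602 and 2419 CPM against 2782 and 2500 CPM. The summed level therefore differed from that of other WT cells mainly through the most abundant member, while the list's median log2 difference was -0.07. Over the same list the other centroacinar clusters, themselves part of the other WT cells, summed to 52954 and 60670 CPM.

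Of 5 textbook centroacinar genes in the annotation, 2 reached 10 CPM and neither was counted. HES1, the Notch target, stood below the other WT cells, a log2 difference of -0.69 that turned to 0.21 against the other SOX2-expressing WT clusters alone, those with at least 10 CPM of SOX2. Its level was 374 CPM (358 to 389) on day 5, 538 (486 to 594) on day 7 and 850 (829 to 871) on day 9, against 753, 912 and 1100 CPM. ALDH1A1, a retinaldehyde dehydrogenase, had 276 and 345 CPM on day 5 and 9 against 190 and 311 CPM in other WT cells. Its log2 difference of 0.34 turned to -0.14 against the other SOX2-expressing clusters. SOX9, a duct transcription factor, was low, at 3.89 CPM (2.46 to 5.83) on day 5 and 4.75 (3.31 to 6.60) on day 9, against 6.80 and 11.4 CPM. NES had no UMI in the cluster. Set against all other WT cells, these markers do not single the cluster out, so it is called cluster 7 here. Those cells include the other centroacinar clusters, so a marker shared by the class is hard to count there. The name itself was not tested.

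Duct genes were mixed. CFTR had 33.6 CPM (29.1 to 38.7) on day 5, 38.5 (25.6 to 55.7) on day 7 and 39.3 (34.9 to 44.1) on day 9, against 15.9, 15.7 and 28.5 CPM in other WT cells. The other centroacinar clusters were at 38.8, 22.3 and 34.7 CPM, so the cluster stood with them on day 5 and 9. Of the study's 6 ductal markers, 3 were lower in the cluster, namely KRT5, ADIRF and CAPG, and none was higher. Of all 7929 genes tested, 4.59% were lower and 0.378% higher, shares to read beside this and each list count below. ADIRF, a small adipogenesis factor, had 154 and 260 CPM against 1747 and 1524 CPM, a log2 difference of -3.02 that was -0.89 against the other SOX2-expressing clusters. CAPG, an actin-capping protein, had 81.0 and 64.7 CPM against 443 and 288 CPM.

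Endothelial, neural and acinar enzyme markers were at or near 0, while immune markers and the acinar markers of the study were not. All 4 endothelial and all 4 neural markers had no UMI in the cluster, and 7 acinar enzyme genes summed to 0.338 and 0.136 CPM on day 5 and 9. The 7 acinar markers that the study used, which hold no digestive enzyme, summed to 559 and 521 CPM, against 773 and 566 CPM in other WT cells. Fibroblast markers summed to 6.42 and 6.51 CPM, against 5.55 and 7.62 CPM in other WT cells. The 5 immune markers summed to 76.7, 50.9 and 101 CPM on day 5, 7 and 9, against 26.9, 25.6 and 113 CPM. Most of that was CD74, the invariant chain of MHC class II, at 63.1, 38.5 and 89.1 CPM, while PTPRC, which marks leukocytes, had no UMI. The 5 proliferation markers of the study summed to 0.845 and 0.407 CPM, against 65.5 and 1.34 CPM. In the other centroacinar clusters they summed to 2.10 and 0.712 CPM. PDX1, the pancreatic master transcription factor, had no UMI in the cluster and none in the other WT cells on day 5 and 9. Per the study, the pooled WT and CF donors differed in PDX1 level. NKX2-1, a transcription factor known from lung and thyroid and named here after its values were seen, had 16.7 CPM (13.6 to 20.4) on day 5 and 19.1 (16.1 to 22.6) on day 9, against 11.3 and 11.9 CPM. Of 10 secretory genes of airway type measured, WFDC2 and SCGB1A1 were higher in the cluster and BPIFB1 was lower, with a list median of 0.20 that was 0.64 on day 5 and -0.41 on day 9. The origin of the WT cells was not tested.

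Over 7929 genes of at least 10 CPM, the cluster was most like clusters that carry the name centroacinar progenitor. On day 5 the Pearson correlation of log2(CPM + 1) was highest with cluster 10, at 0.975, followed by clusters 1, 24 and 21, all of that name. Cluster 3, the nearest of those named centroacinar, followed at 0.958. On day 9 cluster 21 came first at 0.978, with cluster 3 at 0.976 and cluster 10 at 0.973. These correlations are across genes, which are not replicates, and the pairs share a library, so their order is a description. Cluster 7 of day 5 and of day 9 correlated at 0.986, against 0.955 for the other WT cells. The mix of those other cells changed, with 571 and 14 cells of cluster 0 and 1 and 801 of cluster 8. The 2 values are therefore not a like comparison. On the study's list of 11 measured progenitor markers, only TSPAN8, a tetraspanin, was counted as higher and only TFF3 as lower. TSPAN8 had 148 and 163 CPM against 60.6 and 73.0 CPM, and was not counted against the other SOX2-expressing clusters.

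Against the other WT cells, far more genes were lower than higher. Of 7929 genes, 30 were higher, a background of 0.378%, and 364 were lower, 4.59%. The median of all these genes was a log2 difference of -0.13. TMM scaling moved that median to 0.00 and DESeq2 size factors to 0.03, while leaving mitochondrial and ribosomal protein genes out of the total moved it to -0.22, so differences are best read relative to it. TMM scaling gave 59 higher and 308 lower genes, and DESeq2 size factors 62 and 298. With mitochondrial and ribosomal protein genes left out, 31 were higher and 475 lower, and all 364 lower genes were among the 475. The lower genes were mostly far down: their median level was 19.0% of that in other WT cells on day 5 and 26.1% on day 9, and 69 and 53 of the 364 were under 5%.

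**Figure D2:**
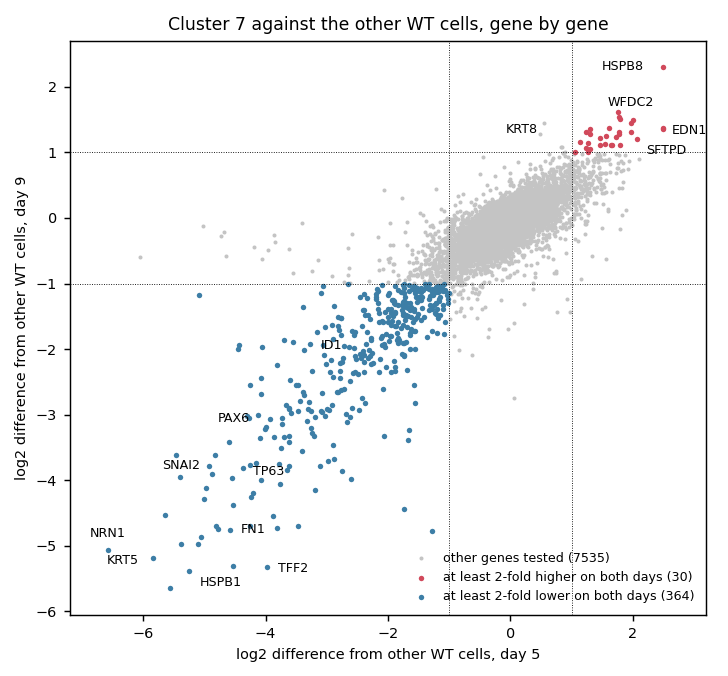
Log2 difference of CPM + 1 between cluster 7 and the other WT cells on day 5 (x axis) and day 9 (y axis), 1 point for each of 7929 genes, with the 30 genes counted as higher and the 364 counted as lower in colour. The lower genes reach -6.58 on day 5, the value of NRN1, while the highest of the higher genes, HSPB8, is at 2.50 on day 5 and 2.31 on day 9.

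The gene furthest above was HSPB8, a small heat shock protein and chaperone. It lies at 12862210 to 12875243 of its sequence in assembly ASM1176430v1.1, whose table names no chromosome for it. It had 18.1 CPM (14.8 to 21.9) on day 5, 15.1 (7.55 to 27.1) on day 7 and 20.8 (17.6 to 24.3) on day 9, against 2.38, 1.19 and 3.40 CPM. The cluster's level was thus 7.59-fold (5.97 to 9.59) that of the other WT cells on day 5 and 6.11-fold (4.97 to 7.49) on day 9. Of the 18 WT clusters ranked on each of these days it was the highest on both. HSPB1, another small heat shock protein, went the other way, with 18.1 and 13 CPM against 727 and 588 CPM. Of 12 heat shock genes measured, HSPB8 was the single one counted as higher, and HSPB1 and CRYAB were lower.

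EDN1, also counted as higher, encodes endothelin-1, a vasoactive peptide, and lies at 9476005 to 9482991 of its sequence. Its level was 434 CPM (417 to 451) on day 5, 521 (470 to 577) on day 7 and 577 (559 to 594) on day 9, against 76.2, 65.2 and 223 CPM. The ratio went from 5.69 (5.44 to 5.96) on day 5 to 2.59 (2.50 to 2.67) on day 9, with a higher level in the other cells. Those other cells were a different mix of WT clusters on each day. The cluster ranked second of 18 on day 5, behind cluster 3 at 502 CPM, and first on day 9. TGFB2, a transforming growth factor beta ligand, had 136 CPM (127 to 146), 146 (119 to 176) and 156 (147 to 165) on day 5, 7 and 9, against 40.2, 41.7 and 65.5 CPM, and was the highest of the ranked clusters on both day 5 and day 9.

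Of 14 ligands of the epidermal growth factor receptor and MAPK feedback genes, none was counted, although AREG, encoding the ligand amphiregulin, had 686 and 783 CPM against 379 and 394 CPM and so missed 2-fold by little. The cytokine IL1A had 106 CPM on day 5 and 122 on day 9 against 31.4 and 61.8 CPM. CXCL8, a neutrophil attractant, had 15.2 and 20.1 CPM against 3.23 and 10.5 CPM. Both were past 2-fold on day 5 alone.

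WFDC2, a small secreted protein with a protease-inhibitor fold, lies at 9270027 to 9275552 of its sequence. It had 5566 CPM (5506 to 5626) on day 5, 4228 (4080 to 4380) on day 7 and 28765 (28643 to 28888) on day 9, against 1385, 1508 and 10201 CPM. The other centroacinar clusters had 3965, 1668 and 17010 CPM, and WFDC2 was not counted as higher than in them. Day 9 was by far the highest in the cluster and in the rest alike. Cells of the cluster differed widely in it. On day 5 the lower quartile, median and upper quartile were 0.480, 3.17 and 59.4 UMIs per 10000, and the ninth decile was 229.9. On day 9 they were 14.2, 210.2 and 452.0, so the median cell of day 9 stood near the ninth decile of day 5. KRT8 was even by comparison, with 21.7, 28.6 and 37.5 UMIs per 10000 at the quartiles of day 5 and 20.4, 27.8 and 36.5 on day 9.

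Other secretory and surface genes counted as higher were of low or middle level. SFTPD, a surfactant collectin of innate defence, had 62.4, 100.4 and 91.3 CPM on day 5, 7 and 9 against 14.1, 20.1 and 39.2 CPM. AQP4, a water channel, had 47.8, 67.4 and 80.9 CPM against 11.5, 18.3 and 31.9 CPM, but the other centroacinar clusters were at 68.9 CPM on day 5 and 56.3 on day 9. SCGB1A1, a secretoglobin, had 24.0 CPM on day 5 and 29.0 on day 9 against 9.19 and 10.8 CPM, and 0 UMIs among the 47 cells of day 7, where 3 UMIs would be 4.13 CPM. SCGB1A1 lost its count in 4 alternatives. None of 6 mucins was counted. MUC16, a membrane mucin, had 447 CPM on both day 5 and day 9 against 129 and 324 CPM, and MUC5AC, a gel-forming mucin, had 9.80 and 40.8 CPM against 12.8 and 134 CPM.

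Enzymes and transporters among the higher genes included ALDH3B1, an aldehyde dehydrogenase, with 13.9 CPM (11 to 17.2) on day 5 and 31.2 (27.3 to 35.5) on day 9 against 2.80 and 10.8 CPM. SLC7A9, a light chain of a cystine transporter, had 12.8 and 25.2 CPM against 3.11 and 7.54 CPM. PLPP2, a lipid phosphatase, had 314, 337 and 304 CPM on day 5, 7 and 9 against 105, 131 and 128 CPM. All 3 ranked second of 18 clusters on day 5 and first on day 9. LOC106003392, which has no gene name in the annotation, was among the most abundant, at 9774, 6502 and 5655 CPM against 2278, 2248 and 3033 CPM, and was past 2-fold on day 5 and 7 but not on day 9.

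Among keratins, KRT8 was higher than in the other cells and KRT5 was nearly gone. KRT8 had 3092 CPM (3047 to 3137) on day 5, 2351 (2241 to 2465) on day 7 and 2956 (2917 to 2996) on day 9, against 1320, 1107 and 1406 CPM, and was the highest of the ranked clusters on day 5 and 9. Of the 4 simple keratins it was the single one counted, with KRT18 at 888 and 886 CPM against 547 and 540 CPM and KRT19 at 4820 and 4146 CPM against 5109 and 3736 CPM. KRT5, at 3404301 to 3410416 of its sequence, had 10.6 CPM (8.18 to 13.6) on day 5, 17.9 (9.52 to 30.6) on day 7 and 9.90 (7.76 to 12.5) on day 9, against 664, 745 and 398 CPM. That is 1.60% of the other cells' level on day 5 and 2.49% on day 9. It was the single one lower of 4 basal and squamous keratins measured, whose median was -0.71 on day 5 and 0.08 on day 9. TP63, encoding p63, had 2.03, 2.75 and 1.36 CPM against 61.8, 59.2 and 32.1 CPM. SNAI2, a repressor of epithelial genes that basal cells also use, had 1.18, 1.38 and 1.76 CPM against 62.9, 54.5 and 40.7 CPM. KRT5 intervals lay below the value of the other WT cells on every day.

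The list with the lowest median after filtering for 10 CPM was that of mesenchymal and contractile genes, with 9 of 12 measured members lower, none higher and a median log2 difference of -3.21, against -0.13 for all genes. Of all genes tested 4.59% were lower, the share to read beside this list and those below. TAGLN, an actin-binding protein of contractile cells, had 6.76 CPM on day 5, 0 UMIs on day 7 and 9.09 CPM on day 9, against 257, 108 and 293 CPM. SPARC, a secreted matrix regulator, had 6.09, 5.50 and 5.70 CPM against 169, 125 and 181 CPM. FN1, encoding fibronectin, had 18.9, 5.50 and 5.43 CPM against 278, 93.9 and 170 CPM. The members also counted were VIM, CALD1, MYL9, PRRX2, LGALS1 and SNAI2. The calls of PRRX2 and LGALS1 depended on the settings, with 10 and 7 alternatives in which they were not counted, and VIM was not counted in 2. Fibroblast-defining collagens were near 0 in both sets of cells, as the marker sums above show.

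Matrix and adhesion genes lay in the same direction. Of 5 collagens measured, 4 were lower with a list median of -3.01. COL18A1 had 5.41, 6.88 and 5.56 CPM on day 5, 7 and 9 against 180, 136 and 170 CPM, and COL17A1, a hemidesmosome collagen, had 14.9, 33 and 22.4 CPM against 175, 164 and 136 CPM. Of 15 laminins and integrins, 7 were lower and none higher. ITGB4, the hemidesmosome integrin, had 140 and 128 CPM against 586 and 489 CPM. TIMP1, an inhibitor of matrix proteases, had 11.3 and 9.36 CPM against 116 and 78.6 CPM, and was 1 of 5 lower among 11 matrix proteases and inhibitors. Junction genes did not share this: of 22 measured, CDH3 alone was lower, and the list median was 0.12. CDH1, encoding E-cadherin, had 573 and 534 CPM against 349 and 505 CPM.

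ID1, a direct target of bone morphogenetic protein (BMP) signals, had 116 CPM (108 to 125) on day 5, 133 (108 to 163) on day 7 and 127 (119 to 135) on day 9, against 1140, 1078 and 485 CPM. It was the lowest of 18 ranked clusters on day 5 and second lowest on day 9. ID3 had 338, 351 and 209 CPM against 1213, 1252 and 782 CPM, and was not counted against the other SOX2-expressing clusters. Of 12 BMP response genes, 7 were lower than in other WT cells and none higher, with a median of -1.57. Of 20 TGF-beta ligands and targets, 9 were lower and the ligand TGFB2 was the single one higher, with a median of -0.94.

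Of 10 Notch genes measured, 3 were lower than in other WT cells, the ligands JAG2 and DLL1 and the glycosyltransferase LFNG. LFNG was not counted in 3 alternatives. JAG2 had 1.86 and 1.49 CPM on day 5 and 9 against 35.2 and 17.1 CPM, and DLL1 had 6.42 and 8.01 CPM against 54.9 and 26.8 CPM. Of 12 WNT genes, 3 were lower, WNT5B and WNT7A among them. Both insulin-like growth factor binding proteins that were lower were abundant elsewhere: IGFBP3 had 126 and 114 CPM against 1066 and 732 CPM, and IGFBP7 had 211 and 183 CPM against 1188 and 955 CPM.

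Of 27 genes of cholesterol and lipid synthesis, 6 were lower, with a median of -0.51, among them SQLE, the squalene epoxidase, with 11.8 CPM on both days against 50.5 and 37.3 CPM. Of 26 glycolysis and hypoxia genes, 6 were lower, with a median of -0.74. VEGFA, an angiogenic factor of that list, had 13.5 CPM (10.7 to 16.8) on day 5 and 14.5 (11.9 to 17.5) on day 9 against 69.0 and 55.2 CPM, the lowest of 18 ranked clusters on both days. None of 22 nuclear genes of the respiratory chain was counted, with a median of -0.08. Genes of G2/M and mitosis summed to 69.0 CPM on day 5 against 695.5 CPM in other WT cells, and to 55.2 against 82.9 CPM on day 9, when dividing cells were few everywhere. In the other centroacinar clusters these genes summed to 93.1 and 65.4 CPM on day 5 and 9, nearer to cluster 7. Some list medians differed between the days: that of trefoil factors was -1.27 on day 5 and -4.78 on day 9, and that of mucins 1.04 and -0.09.

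**Figure D3:**
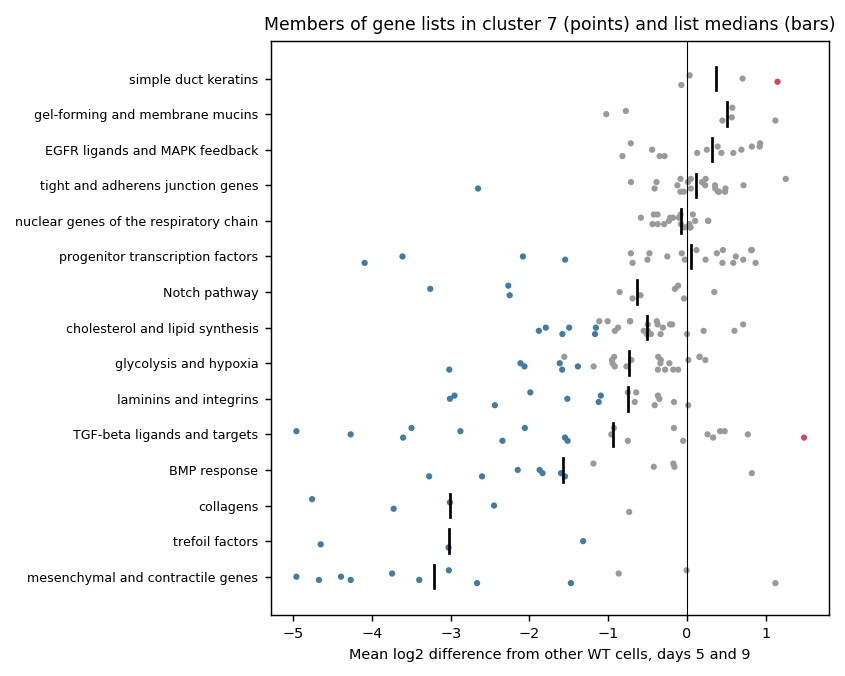
Mean log2 difference from the other WT cells over day 5 and 9 (x axis) for the members of each gene list of at least 10 CPM (points), with list medians as bars. Mesenchymal genes, collagens and trefoil factors have medians of -3.21, -3.01 and -3.03, while simple keratins and mucins are at 0.37 and 0.51.

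The lowest single genes included some not on any of these lists. NRN1, encoding neuritin, at 3561149 to 3570178 of its sequence, had 2, 1 and 3 UMIs in the cluster on day 5, 7 and 9, or 0.338, 1.38 and 0.407 CPM, against 127, 88.0 and 46.1 CPM. GUCA2A, encoding the gut peptide guanylin, had 9.64, 15.1 and 5.29 CPM against 444, 303 and 198 CPM. GZMA, encoding a granzyme, had 3, 0 and 6 UMIs against levels of 74.7, 62.2 and 40.8 CPM. All 3 were at least 2-fold lower on both days, and NRN1 was not counted against the other SOX2-expressing clusters.

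Transcription factors of the pancreas and of epithelia fell on either side. SOX2, a factor of foregut epithelia, had 134 CPM (125 to 144) on day 5, 75.7 (57.0 to 98.5) on day 7 and 130 (121 to 138) on day 9, against 64.5, 69.8 and 84.9 CPM. Its interval on day 7 held the other cells' level, and on day 5 and 9 it did not. PAX6, an eye and endocrine factor, had 3.55, 1.38 and 2.44 CPM against 72.2, 44.0 and 31.0 CPM. FOXA2, an endoderm factor, had 2.70 and 1.63 CPM on day 5 and 9 against 12.7 and 11.8 CPM, while FOXA1 had 162 and 159 CPM against 138 and 135 CPM. GATA3 had 18.6 and 22.0 CPM against 65.5 and 56.8 CPM. FOSL1, an AP-1 subunit, was higher, with 36.0 and 47.4 CPM against 14.7 and 18.5 CPM, alone among 21 AP-1 and immediate early genes. Against the other SOX2-expressing clusters PAX6, FOXA2, GATA3 and FOSL1 were no longer counted, PAX6 having a log2 difference of -0.35 there.

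The other SOX2-expressing clusters were then the reference. WT clusters with at least 10 CPM of SOX2 numbered 29 of 41, cluster 7 among them. Against the others of these, 7 of 7802 genes tested were higher and 269 were lower. Of the 364 lower genes 218 were still lower, and 5 of the 30 higher genes were still higher. Of the 58 genes named here and counted against all other WT cells, 32 were still counted, HSPB8, KRT8, SLC7A9, KRT5, TP63 and ID1 among them. EDN1, TGFB2, WFDC2, SFTPD, AQP4, SCGB1A1, PLPP2, ALDH3B1 and TSPAN8 were not. The other 7 clusters named centroacinar were the nearest reference by name. Their cells came mostly from cluster 12 on day 5, with 254 of 445, and from cluster 3 on day 9, with 965 of 1903, so the mix differed between the days. On day 9 they also held 146 cells of cluster 30 and 57 of cluster 38, both under 10 CPM of SOX2. These correlated with cluster 7 at 0.865 and 0.631. Against the other 7 clusters together, 1 gene of 7645 was higher, a background of 0.0131%, and 104 were lower, 1.36%. The higher gene was HSPB8, with 18.1 and 20.8 CPM against 7.46 and 5.50 CPM, and with a pseudocount of 5 CPM it was no longer counted. Of the 104 lower genes, 99 were also among the 364.

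Of 3 trefoil factors, 2 were lower in that comparison, with a median of -3.07, beside medians of -1.97 for mesenchymal genes and -1.67 for collagens. Several other lists were less set apart there than against all other WT cells. Of Notch genes 0 of 9 were lower, of glycolysis and hypoxia genes 1 of 23, and of cholesterol and lipid synthesis 1 of 26. Of laminins and integrins 2 of 14 were lower, of BMP response genes 3 of 11, and of TGF-beta ligands and targets 4 of 19. TFF2, a mucosal trefoil peptide, had 0.169 CPM on day 5, 5.50 on day 7 and 7.87 on day 9. The other centroacinar clusters had 123, 88.5 and 154 CPM of TFF2. With every UMI counted, TFF2 was seen in 4.72% of their cells on day 5, against 0.319% of cluster 7 cells. Its level in those clusters thus came from a small share of cells on that day. On day 9 TFF2 was seen in 21.07% of the cells of the other centroacinar clusters, against 12.01% of cluster 7 cells. ECRG4, a secreted peptide precursor, had 0.676 and 2.71 CPM on day 5 and 9 against 119 and 69.1 CPM. MAL, a membrane-raft protein of apical transport, had 0 UMIs and 1.09 CPM against 46.9 and 37.2 CPM. KRT5 was lower here too, at 10.6 and 9.90 CPM against 175 and 106 CPM. Against all other WT cells each of the 3 measured trefoil factors was lower, TFF1 with 0 UMIs on day 5 and 4.48 CPM on day 9 against 1.42 and 150 CPM. Counting every UMI, TFF3 was seen in 12.8% and 34.5% of cluster 7 cells on day 5 and 9, against 17.0% and 36.1% of other WT cells. None of the 3 trefoil factors was counted against the other SOX2-expressing clusters, and neither were ECRG4 and MAL. With a pseudocount of 5 CPM neither TFF1 nor TFF3 was counted against all other WT cells.

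Clusters 3, 21 and 10 were taken singly next, as those with the highest mean correlation with cluster 7 over day 5 and 9 among clusters of at least 50 cells on both days. This choice was made after the data were seen. KRT5, TP63, PAX6, NRN1, TAGLN and SNAI2 were low in these clusters as well, at no more than 19.2 CPM on either day. KRT5, the highest of them, had 7.13 and 19.2 CPM in cluster 3, 19.1 and 7.41 in cluster 21 and 11.9 and 8.12 in cluster 10 on day 5 and 9. What set cluster 7 apart from these neighbours was a smaller set of genes.

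Against cluster 3, 31 of 7484 genes were higher, 0.414%, and 44 were lower, 0.588%. TNFRSF12A, the receptor of the cytokine TWEAK, had 621 and 587 CPM in cluster 7 against 183 and 187 CPM, and SPP1, encoding osteopontin, had 30.3 and 42.7 CPM against 8.32 and 11 CPM. MUC5AC and MUC5B lay the other way: MUC5AC had 9.80 and 40.8 CPM against 88.0 and 161 CPM, and MUC5B had 12.8 and 19.0 CPM against 97.5 and 88.0 CPM. Cluster 3 had 50 cells on day 5, which limits its values there.

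Against cluster 21, 31 of 7504 genes were higher, 0.413%, and 59 were lower, 0.786%. F3, encoding tissue factor, had 547 and 505 CPM against 183 and 161 CPM, and the WNT antagonist DKK1 had 24.5 and 18.3 CPM against 5.02 and 6.59 CPM. CD74 had 63.1 and 89.1 CPM in cluster 7 against 635 and 618 CPM in cluster 21. CD74 in cluster 7 was near its level in cluster 10, at 62.0 and 103 CPM.

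Against cluster 10, 82 of 7449 genes were higher, 1.1%, and 49 were lower, 0.658%. SPP1 had 30.3 and 42.7 CPM against 2.50 and 3.82 CPM, and PMEPA1, a TGF-beta-induced membrane protein, 245 and 236 CPM against 35.6 and 44.9 CPM. CLU, encoding the chaperone clusterin, had 583 and 1401 CPM against 111 and 224 CPM. ID1 was among the lower genes, with 116 and 127 CPM against 443 and 564 CPM, as was SPDEF, a factor of goblet cells, with 7.27 and 5.70 CPM against 33.5 and 27.2 CPM. SPP1 thus stood in cluster 7 between these neighbours and the other WT cells, where it had 148 and 182 CPM.

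**Figure D4:**
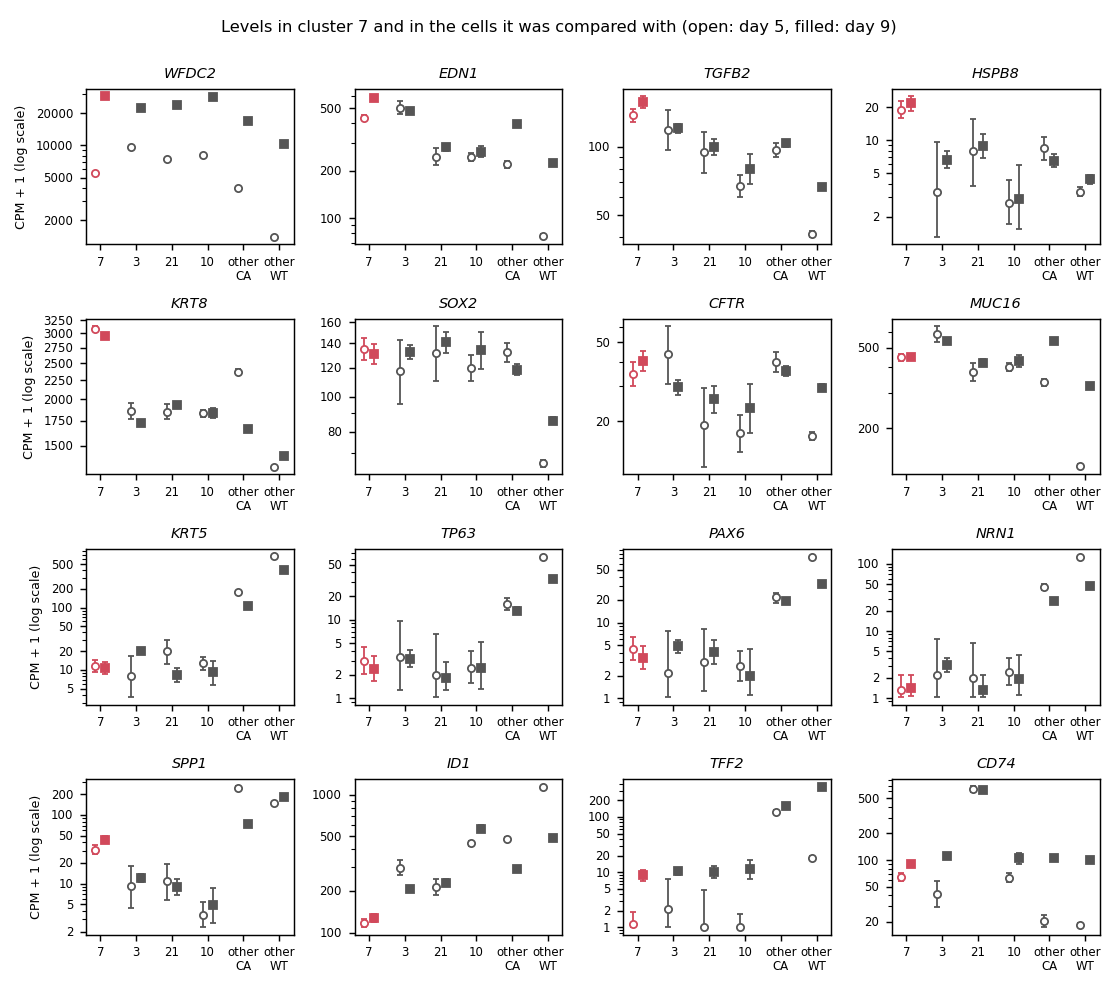
CPM + 1 on a log axis for 16 genes in cluster 7, clusters 3, 21 and 10, the other centroacinar clusters (other CA) and the other WT cells (other WT), with open points for day 5, filled points for day 9 and exact 95% counting intervals. KRT5 lies between 7.13 and 19.2 CPM in clusters 7, 3, 21 and 10 and at 106 CPM or more in the others, while SPP1 in cluster 7, at 30.3 and 42.7 CPM, lies above the 3 neighbours.

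Within the cluster, 41 of 7352 genes were at least 2-fold higher on day 9 than on day 5, 0.558%, and 10 were lower, 0.136%. Each day is 1 library, and the change of the other WT cells is given beside each gene. Those other cells were a different mix of clusters on each day. The largest difference was that of TFF3, at 17.1 CPM on day 5, 56.4 on day 7 and 140 on day 9, or 2.97 on the log2 scale, against 3.30 in the other WT cells. LTF, encoding lactoferrin, went from 10.5 to 63.2 CPM, a difference of 2.48 against 4.57 in the others. WFDC2 differed by 2.37 against 2.88. CLU differed by 1.26 against 0.85, and HES1 by 1.18 against 0.55. The day 9 library thus held more of the first 3 transcripts inside and outside the cluster. Among genes of at least 50 CPM, 1 was at least 2-fold lower. LOC101679224, which has no gene name in the annotation, went from 236 to 115 CPM, a difference of -1.04 against 0.63 in the others. DUOXA2 and PLAU fell short of 2-fold. DUOXA2, a maturation factor of the dual oxidases, went from 85.0 to 42.7 CPM, -0.98 against 0.40, and PLAU, the urokinase, from 171 to 89.7 CPM, -0.92 against -0.66.

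The share of cells with a UMI put cluster 7 on the same side of the other WT cells as the sums did for the genes given here. Each cell was thinned to 3000 UMIs, which left out 2 of 313 cells of the cluster on day 5 and 0 of 458 on day 9. EDN1 was seen in 65.3% of cells (59.7 to 70.6) on day 5 and 66.8% (62.3 to 71.1) on day 9, against 14.3% and 32.2% of other WT cells and 1.48% and 2.93% in the WT clusters with the lowest share. Without thinning the shares in the cluster were 94.9% and 91.0%. KRT5 was seen in 1.61% (0.524 to 3.71) and 3.28% (1.84 to 5.34) against 61.2% and 36.5%. Cluster 7 itself had the lowest KRT5 share of the WT clusters on day 5, although its summed KRT5 level was above that of cluster 3. On day 9 the share was lower in cluster 21, at 0.959% (0.262 to 2.44). HSPB8 was seen in 3.86% and 4.37% of cells against 0.740% and 0.912%, and in no cell of the lowest cluster. SOX2 was seen in 30.9% and 30.6% against 18.4% and 20.4%. In the other centroacinar clusters it was seen in 32.2% and 28.2%, near the share in cluster 7.

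Along the authors' pseudotime, which orders WT cells on 15 lineages, nearly all cells of the cluster lay on the same 6 lineages. Lineages 1, 3, 4, 5, 6 and 7 each held between 814 and 818 of the 818 cells, lineages 2 and 8 held 45 each, lineage 10 held 4, and the other 6 held none. On the 6 shared lineages the cluster's median stood between the 49.9th and the 63.7th percentile of all cells of the lineage. Clusters 3, 21 and 10 stood later on lineage 5, at the 87.2nd, 78.3rd and 71.8th percentile against the 63.7th, and on lineage 7, at the 83.0th, 75.3rd and 64.5th against the 60.8th. On lineage 6 they also stood later, at 69.9, 76.8 and 65.5 against 52.5. On lineage 1 they stood earlier, at 51.3, 51.3 and 44.1 against 56.3. Only 632 of 1044 cells of cluster 3, 328 of 507 of cluster 21 and 525 of 761 of cluster 10 lay on it. Part of each of these clusters was also off lineage 3, and each median covers only the cells on its lineage. Clusters 3, 21 and 10 fell on both sides on lineage 3, at 62.9, 53.1 and 45.0 against 58.6, and on lineage 4, at 61.4, 57.1 and 44.0 against 49.9. Median pseudotime inside the cluster on day 5 and day 9 was 43.5 and 44.1 on lineage 1, 49.6 and 51.3 on lineage 5 and 49.0 and 50.8 on lineage 7. Pseudotime was computed from the same cells and genes as the clusters.

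WFDC2, TGFB2, SOX2 and NKX2-1 were far lower in the CF libraries on every day and AQP4 on day 5, 7 and 9, SOX2 and NKX2-1 being genes not counted as higher in the cluster. HSPB8 was low over all cells of both genotypes, with between 0.986 and 4.91 CPM in WT and between 1.04 and 1.61 CPM in CF. Over all cells of a library, WFDC2 had 128, 1629, 1532 and 11815 CPM in WT on day 2, 5, 7 and 9, and 0.469, 34.8, 95.3 and 270.9 CPM in CF. TGFB2 had 18.0, 45.8, 42.6 and 73.4 CPM in WT and between 0.147 and 4.46 CPM in CF. SOX2 had between 68.5 and 114.5 CPM in WT and at most 0.0864 CPM in CF, and AQP4 had 0.201, 13.6, 18.7 and 36.2 CPM in WT on day 2, 5, 7 and 9 and at most 0.168 CPM in CF. NKX2-1 had between 11.6 and 29.5 CPM in WT and between 0.195 and 1.01 CPM in CF. EDN1 was nearer, with 32.7, 97.1, 69.2 and 253.7 CPM in WT and 15.0, 40.9, 66.1 and 105.1 CPM in CF, as was KRT5, with 1077, 626, 739 and 364 CPM against 887, 548, 647 and 370 CPM. In CF cells that the authors named centroacinar, WFDC2 had at most 254.9 CPM and SOX2 at most 0.140 CPM, against 28765 and 134 CPM at most in cluster 7 on day 5 and 9. KRT5 in those CF cells had between 457 and 1790 CPM. The clusters of the 2 genotypes were made and named separately. Within WT the class name also covered unlike cells, since clusters 30 and 38 of that name had 3.30 and 4.87 CPM of SOX2 over all days. Genotype and the pool of animals cannot be told apart.

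**Figure D5:**
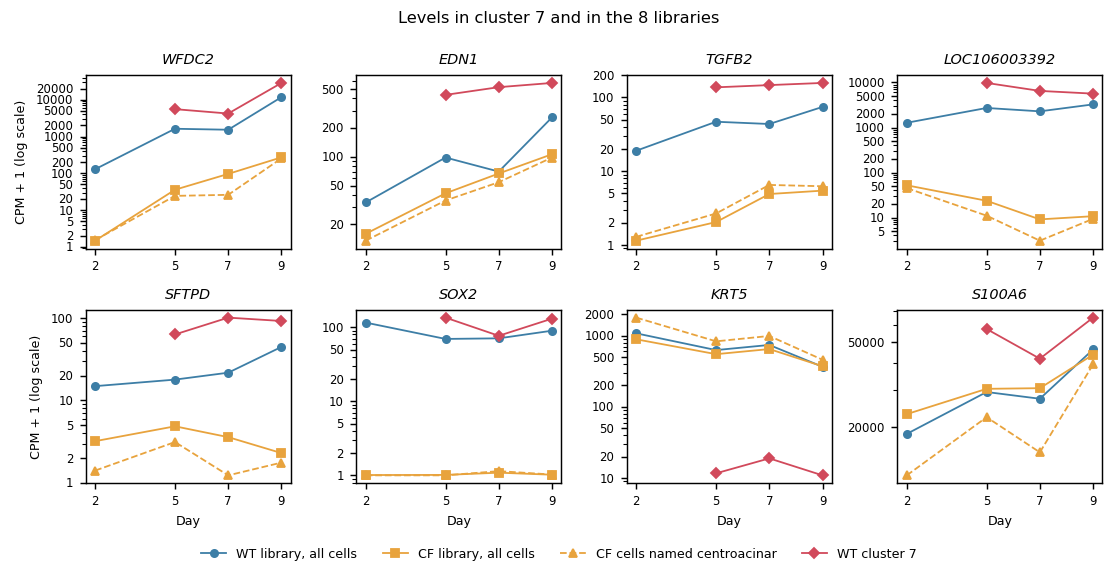
CPM + 1 on a log axis against day for 8 genes described for cluster 7, in the WT and CF libraries over all cells, in CF cells named centroacinar and in cluster 7. WFDC2 reaches 11815 CPM in the WT library of day 9 and 270.9 CPM in the CF library, while EDN1 is at 253.7 and 105.1 CPM.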

How the data were processed

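Single-cell RNA was counted in 8 libraries, 1 for each genotype and day, with genotype and day taken from the sample titles. The authors aligned the reads and counted UMIs with Cell Ranger 5.0.1 on assembly ASM1176430v1.1, with an improved annotation, and deposited whole UMI counts of 27912 genes. In R 4.1.2 with Seurat they filtered cells on genes detected and on the mitochondrial share of reads, and genes on the cells that held them. Doublets had been taken out by DoubletFinder before deposit and were not called again. The authors merged libraries without batch correction, and clustered each genotype separately on its own principal components. Their deposited cell table gave the cluster, the class name, the UMI count and the percent of mitochondrial UMIs, and a further deposited table gave a slingshot pseudotime score. The natural-log normalized values and a table of markers were not used.

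Counts of retained cells were summed per library and cluster, scaled to CPM and compared within a day as log2 of (CPM + 1), an offset that understates changes of low genes. Counting intervals are exact Poisson for levels, exact conditional binomial for ratios and Clopper-Pearson for shares. The calculation was checked on simulated counts. With 1 library a group no model was fitted. edgeR 4.0.16 and DESeq2 1.42.0 gave only alternative scale factors, in R 4.3.3. Other steps used Python 3.11.15 with numpy 2.4.6, scipy 1.17.1 and pandas 2.3.3. The number of rows of the cell table without a library was 0.

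The members and the 59 gene lists were chosen with earlier results of these data known. Genes were named by mean log2 difference: the 20 highest and 12 lowest against other WT cells, the 12 highest and 12 lowest against other centroacinar clusters, the 10 most higher and 10 most lower on day 9 among genes of at least 50 CPM, the 10 most abundant, up to 4 members of each list, all markers, and SOX2, PAX6, PDX1, CFTR, SOX9 and HES1. Other genes were named after their values were seen, and some genes that the rule names are not reported here. The annotation table gives positions without a chromosome. No nucleotide or protein sequence was used here.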

Additional observations from a re-analysis of the deposited data

Results flagged for a closer look

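For 5 reported genes the cluster lay above the other WT cells on day 5 and below them on day 9, or the reverse, with both counting intervals clear of a ratio of 1. The difference between the days was not tested, since each day is 1 library. CD74 had a ratio to the other WT cells of 3.61 (3.22 to 4.04) on day 5 and 0.891 (0.822 to 0.965) on day 9, while its level in the cluster went from 63.1 to 89.1 CPM and that of the others from 17.5 to 100.02 CPM. LTF had a ratio of 2.52 (1.89 to 3.29) and 0.521 (0.474 to 0.572), and DUOXA2 had 2.11 (1.92 to 2.31) and 0.796 (0.708 to 0.893). PROM1 had 1.27 and 0.609, and KRT19 had 0.943 and 1.11. In CD74, LTF and PROM1 the level in the cluster was higher on day 9 than on day 5, and the other WT cells differed by more. Those other cells were not the same mix on the 2 days. Of them, 445 of 5013 on day 5 and 1903 of 4958 on day 9 were named centroacinar. How much of their difference went with that mix was not tested.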

How the results depend on the processing

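Of the 92 reported genes, the only ones whose direction was followed, none counted at 2-fold changed direction under the planned settings. Genes short of 2-fold did, as HES1, from -0.69 to 0.21, and ALDH1A1, from 0.34 to -0.14, against other SOX2-expressing clusters only. The median of all genes, -0.13 against other WT cells, went to 0.00 with TMM scaling and 0.03 with DESeq2 size factors, while several counts moved by more than 1.5 times. Against the other WT cells, 30 genes were higher and 364 lower. Without a filter on low values 666 were lower. Among genes of at least 50 CPM 14 were higher and 105 lower. TMM scaling gave 59 higher and DESeq2 size factors 62. With day 5 alone the counts were 242 and 737, and with the days pooled 89 and 551. Equal weight for each other cluster gave 51 higher, and the other SOX2-expressing clusters as reference gave 7. Against the other centroacinar clusters, where 1 gene was higher and 104 lower, a pseudocount of 5 CPM gave 0 and 69, no filter gave 217 lower, and a minimum of 50 CPM gave 0 and 29. TMM scaling and DESeq2 size factors each gave 4 higher there. Without the tenth of cells with the most UMIs the counts were 3 and 57, with day 9 alone 11 and 168, with day 5 alone 20 and 252, with the days pooled 5 and 159, and with equal cluster weight 4 and 199.

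Against cluster 3, a pseudocount of 5 CPM gave 29 lower, day 9 alone 65 higher and 75 lower, and day 5 alone 194 and 214. Against cluster 21 the same settings gave 13 and 39, 62 and 103, and 102 and 161. Against cluster 10 they gave 25 lower, 150 and 86, and, on day 5 alone, 95 lower. Between day 9 and day 5 within the cluster, a pseudocount of 5 CPM gave 20 higher and 5 lower, no filter 115 and 43, and a minimum of 50 CPM 13 and 1. Of all WT cells the cluster held 5.88%, 1.01% and 8.46% on day 5, 7 and 9, and of WT cells named centroacinar 41.3%, 6.02% and 19.4%. The cause of these moves was not tested beyond what each setting itself does.

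Adding day 7 with its 47 cells, an alternative chosen after the data were seen, gave 27 higher and 305 lower genes against the other WT cells and reversed SCGB1A1, to a mean log2 difference of -0.27. Of 58 reported genes counted against other WT cells, 24 were counted in every alternative. PRRX2 lost its count in 10 alternatives, the most of any reported gene, and LGALS1 in 7. No paired analysis was possible because the labels give no replicate numbers and each group is 1 library. Depth limits day 7 most, where 47 cells held 726869 UMIs and 1 UMI is 1.38 CPM.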
